A study of Mus musculus with 4 samples.

Results

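The Kruppel-like factors are transcription factors that end in 3 C2H2 zinc fingers and bind GC-rich and CACCC-type DNA. The 10 genes described here, Klf2, Klf3, Klf4, Klf5, Klf6, Klf7, Klf9, Klf10, Klf13 and Klf15, were taken by name, with all of their exons in the deposited exon table. They are 10 of 22835 genes and hold 52 of 226463 listed exons. RNA was sequenced from mouse embryonic fibroblasts (MEFs) that carry a Dox-inducible Mitf, the master regulator of the melanocyte lineage, and the question was what 6 days of Mitf induction did to these cells. Dox (-) is a Mitf knock-in MEF culture at passage 5 without Dox, and Dox (+) is a Mitf knock-in MEF culture at passage 5 after Dox. MEF is the wild-type culture at passage 3. All 3 were grown in DMEM with 10% serum. The knock-in cells carry the M2 reverse tetracycline transactivator at ROSA26 and the melanocyte isoform of Mitf under a tetO promoter downstream of Col1a1, with a constitutive mCherry. They come from a single targeted embryonic stem cell clone, by way of chimeric embryos, which also hold host cells; the mCherry and a puromycin resistance cassette let the transgenic cells be isolated. Primary mouse melanocytes, the fourth sample, were not analysed here.

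Each condition had 1 library, so no difference below has a replicate check and none was tested. Levels are RPKM, reads per kb of exon scaled to the aligned reads of the library, as the authors computed them. The RPKM steps correspond to 45000000 aligned reads in MEF, 45000000 in Dox (-) and 44000000 in Dox (+). Read numbers of an exon were recovered from its RPKM and annotated length. They are estimates where that length did not give whole reads, which was so for the first exons of Klf3, Klf6 and Klf10, the fourth exon of Klf7 and the last exons of Klf3, Klf5, Klf6, Klf9 and Klf13, in 1 or more libraries. Intervals are 95% counting intervals (exact Poisson for a level, exact binomial for a ratio) and cover counting error only. In bulk RNA, fewer cells of a type and less RNA per cell cannot be told apart. Mitf, the induced gene, was at 1.52 RPKM in MEF, 30.8 in Dox (-) and 1544 in Dox (+) on its highest exon. The 8 macrophage markers summed to 54.4 RPKM in MEF, 12946 in Dox (-) and 473 in Dox (+), with 2, 8 and 4 of 8 above 10 RPKM, and Lyz2 alone was at 27.8, 10820 and 379 RPKM. The 8 fibroblast markers summed to 18350, 45433 and 11943 RPKM, with 7, 8 and 8 of them above 10 RPKM. Single markers went in opposite directions. Relative to MEF, the highest exons of Col1a1, Col1a2 and Col3a1 were down in Dox (+), by 2.15-, 2.22- and 3.92-fold. Those of Dcn, Lum, Thy1, Pdgfra and Pdgfrb were up, at 24.0, 7.38, 4.97, 2.55 and 1.39 times their MEF level. In MEF, Lum was at 6.07 RPKM, and the epithelial genes Krt14 and Cdh1 were at 32.8 and 21.7 RPKM. The other epithelial markers, Epcam, Krt8, Krt18 and Krt5, were at 1.68, 0.176, 4.85 and 0 RPKM in MEF. Krt14 was also at 26.9 RPKM in Dox (+). The 8 melanocyte markers summed to 4.97, 41.5 and 318 RPKM, with 0, 1 and 4 above 10 RPKM. The 6 endothelial markers summed to 9.37, 17.6 and 5.78 RPKM, with 0, 1 and 0 above 10 RPKM. The 6 epithelial markers summed to 61.2, 9.54 and 33.6 RPKM, with 2, 0 and 1 above 10 RPKM. The part that this mix of cells plays in the values below was not tested.

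The family falls into groups by partner proteins and by sequence. Klf2, Klf4, Klf5, Klf6 and Klf7 are mostly known as activators. Klf3 is a repressor that recruits the CtBP corepressors, as Klf8 and Klf12 do. Klf9, Klf10 and Klf13 are known to recruit the SIN3A corepressor, and Klf15 is known for metabolic control in muscle, liver and fat. Klf4 is also a factor of induced pluripotency, Klf9 and Klf15 are known targets of the glucocorticoid receptor, and Klf10 is an early response gene of TGF-beta signalling.

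The level of Klf3, Klf4 and Klf5 by the authors' measure, the highest RPKM among a gene's exons, rested in all 3 libraries on 1 short coding exon that encodes part of the zinc finger domain. These 3 exons are shown because they set the levels given next and because they share the sequence that defines the family. The Klf3 exon (chr5:64827110-64827270, plus strand, mm10) has 161 bp, the Klf4 exon (chr4:55529718-55529882, minus strand) 165 bp and the Klf5 exon (chr14:99303418-99303477, plus strand) 60 bp. Sequences run 5′ to 3′ from GENCODE M21 transcripts, and capitals mark the bases identical in all 3 when the last 60 bases are aligned end to end without gaps.
Klf3: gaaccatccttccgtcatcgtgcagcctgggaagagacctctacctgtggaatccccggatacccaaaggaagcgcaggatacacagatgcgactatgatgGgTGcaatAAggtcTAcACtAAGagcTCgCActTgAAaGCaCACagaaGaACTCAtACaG
Klf4: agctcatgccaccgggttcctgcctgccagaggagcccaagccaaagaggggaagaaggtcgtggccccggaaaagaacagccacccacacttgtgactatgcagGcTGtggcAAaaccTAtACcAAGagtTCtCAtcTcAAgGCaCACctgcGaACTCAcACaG
Klf5: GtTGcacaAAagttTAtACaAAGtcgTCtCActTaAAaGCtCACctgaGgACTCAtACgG
In this alignment 33 of 60 bases were identical in all 3 genes. Klf3 and Klf5 shared 42 of the 60 bases, and Klf4 shared 39 with each of them. Whether reads were split between family members by this likeness was not tested.

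Klf6, known from wound responses and myeloid cells, had the highest level of the 10 members in every library. Its reads, pooled over all non-overlapping exons, gave 105.5 RPKM in MEF, 81.9 in Dox (-) and 89.7 in Dox (+). Klf15 had the lowest pooled level in every library, at 3.15, 0.495 and 0.736 RPKM. The rest lay between these ends, as the plot of levels by library shows. In MEF the pooled order after Klf6 was Klf3 (30.03 RPKM), Klf4 (29.1), Klf13 (21.2), Klf10 (20.4), Klf9 (13.2), Klf7 (7.95), Klf5 (6.38), Klf2 (5.51) and Klf15. Klf3 and Klf4 had overlapping counting intervals there, as did Klf13 and Klf10, and Klf5 and Klf2. In Dox (-) the pooled order after Klf6 was Klf3 (41.0 RPKM), Klf4 (28.7), Klf10 (24.7), Klf13 (23.2), Klf9 (22.4), Klf7 (9.96), Klf2 (6.51), Klf5 (2.90) and Klf15, and of these neighbours only Klf13 and Klf9 overlapped. In Dox (+) it was Klf3 (38.7 RPKM), Klf10 (37.4), Klf4 (33.8), Klf13 (28.3), Klf9 (17.1), Klf5 (6.14), Klf2 (5.87), Klf7 (5.72) and Klf15. The intervals of Klf3 and Klf10 overlapped in Dox (+), as did those of Klf5, Klf2 and Klf7. Klf10 was behind Klf6, Klf3, Klf4 and Klf13 in MEF and behind Klf6 and Klf3 in Dox (+).

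**Figure D1:**
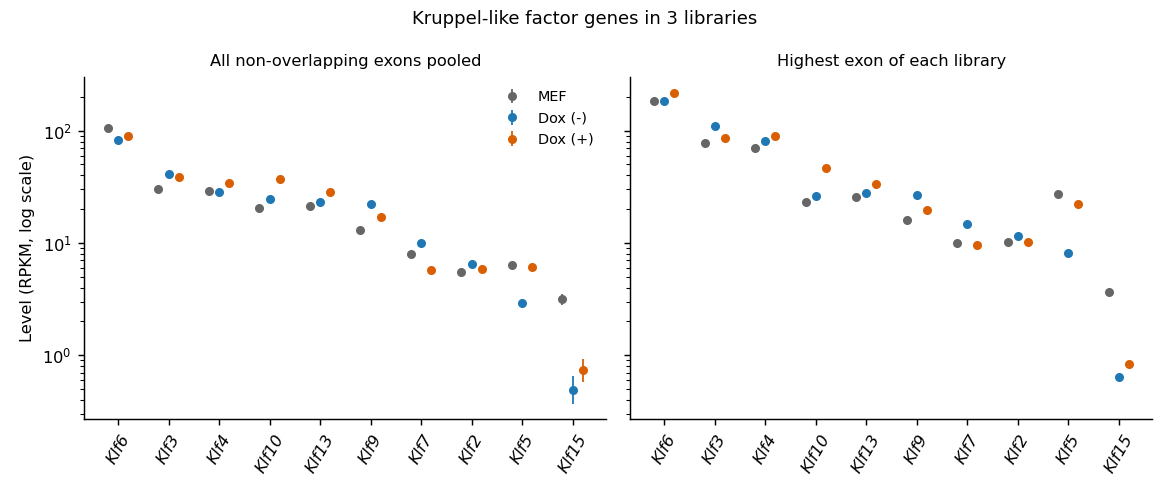
Level of each Kruppel-like factor gene (RPKM, log axis) in the MEF (grey), Dox (-) (blue) and Dox (+) (orange) libraries, from all non-overlapping exons pooled (left; bars are 95% counting intervals) and from the highest exon (right). Klf6 is at the top and Klf15 at the bottom of both panels, and Klf5 in Dox (-) is below its level in the other libraries.

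The measure mattered for some members more than for others. On the highest exon Klf6 was at 185 RPKM in MEF, 185 in Dox (-) and 218 in Dox (+), and Klf4 at 69.5, 81.1 and 89.4 RPKM. For Klf5 the 60-bp exon gave 27.4, 8.15 and 22.3 RPKM, from 74, 22 and 59 reads. For Klf9 and Klf13, whose highest exon was the last one, of 3452 and 5447 bp, the measures lay close together: Klf13 was at 25.6, 27.8 and 33.6 RPKM on it and at 21.2, 23.2 and 28.3 RPKM pooled. Over the 10 members the pooled level was 0.233 to 0.887 times the highest-exon level in MEF, 0.354 to 0.937 times in Dox (-) and 0.275 to 0.882 times in Dox (+).

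Between Dox (+) and Dox (-), the comparison that bears on Mitf induction, no member differed by more than 4-fold on its highest exon. The 10 RPKM threshold was reached by 9 members in either library. Of these, 0 of 9 passed 4-fold, where 7.05% of the 13307 genes tested did. The study set both thresholds on single exons, and the 4-fold one between MEFs and melanocytes. As a single exon, the first of Klf10 was 4.36-fold higher in Dox (+), at 17.5 RPKM. At a 2-fold threshold 1 member, Klf5, was higher in Dox (+) and 0 were lower, where 10.8% of genes were higher and 11.1% lower. The median log2 ratio of the 10 members was 0.15 (range -0.58 to 1.35), beside 0.23 over all genes tested; Klf15, under 10 RPKM, is included among the 10. For these log2 ratios 1 RPKM was added to each level, so that ratios of low genes come out smaller than they are.

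Klf5, known for proliferation in epithelial and smooth muscle cells, was the member with the largest difference. Its pooled level was 6.38 RPKM in MEF, 2.90 in Dox (-) and 6.14 in Dox (+), so Dox (-) stood apart from the other libraries. Dox (+) was 2.11-fold above Dox (-) (interval 1.88 to 2.37), and 7.59% of the genes tested had a larger pooled ratio. Its 874-bp second exon held 649, 316 and 552 reads in MEF, Dox (-) and Dox (+), and its last exon 237, 89 and 281 reads. The ratio of Dox (+) to Dox (-) was 1.79 on the second exon, 2.74 on the 60-bp exon and 3.24 on the last (interval 2.54 to 4.15), and all 3 intervals lay above 1. The difference of Klf5 thus did not rest on 1 exon, and it was larger toward the 3′ end.

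Klf10 was higher in Dox (+) on every exon, by an amount that varied along the gene. Its pooled level was 20.4 RPKM in MEF, 24.7 in Dox (-) and 37.4 in Dox (+), a ratio of 1.52 (1.45 to 1.58) between Dox (+) and Dox (-). Its first exon (chr15:38300559-38300706, minus strand) held about 18, 27 and 114 reads, and its last exon 1813, 2002 and 2603 reads. From the first to the last of its 4 exons the ratio of Dox (+) to Dox (-) was 4.36, 1.82, 1.72 and 1.33. Every exon of Klf10 had its highest level in Dox (+), but the size of the difference depended on the exon.

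Klf13, a factor of T cell chemokine expression that also recruits SIN3A, was at 21.2 RPKM in MEF, 23.2 in Dox (-) and 28.3 in Dox (+) over pooled exons, a ratio of 1.22 (1.18 to 1.26) between Dox (+) and Dox (-). Klf4 had a ratio of 1.18 (1.13 to 1.23) and Klf6 of 1.10 (1.07 to 1.12). The median pooled ratio over all genes tested was 1.13, so these 3 members lay near the middle of all genes: 56.8% of genes lay below Klf13, 53.7% below Klf4 and 47.3% below Klf6. Relative to that median gene the pooled ratios were 1.08 for Klf13, 1.04 for Klf4 and 0.970 for Klf6, so the direction of Klf6 depended on the scaling. On highest exons the median ratio was 1.23 over 11073 genes, those above 10 RPKM in all 3 libraries. Relative to that median Klf13, Klf4 and Klf6 were at 0.983, 0.896 and 0.954. Over the 13307 genes tested the highest-exon median log2 ratio was 0.226, beside 0.265 for Klf13, 0.139 for Klf4 and 0.230 for Klf6. Whether Klf13 and Klf6 lay above or below the median gene on highest exons thus depended on the set of genes.

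Klf7, known for axon growth of sensory neurons, was lower in Dox (+). Its pooled level was 7.95 RPKM in MEF, 9.96 in Dox (-) and 5.72 in Dox (+), the lowest of the 3. Dox (+) was 1.74-fold below Dox (-) (1.65 to 1.84), and 13.7% of the genes tested had a lower ratio. The 4 exons with at least 50 reads over both libraries were all lower in Dox (+), by 1.37-fold to 1.83-fold, with all 4 intervals below 1. The last exon, of 6318 bp, held 2472 reads in MEF, 2842 in Dox (-) and 1515 in Dox (+).

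Klf9 was highest in Dox (-). Its pooled level was 13.2 RPKM in MEF, 22.4 in Dox (-) and 17.1 in Dox (+), and Dox (+) was 1.31-fold below Dox (-) (1.26 to 1.37). The difference lay on the 3452-bp last exon, which held 2507, 4132 and 2990 reads, while the first exon held 153, 396 and 383 reads, a ratio of 0.989 between Dox (+) and Dox (-). The difference between Dox (+) and Dox (-) was thus beyond counting error on 1 of the 2 Klf9 exons.

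Klf3 gave no single direction. On the exon printed above it was at 77.2 RPKM in MEF, 109 in Dox (-) and 86.7 in Dox (+), 1.26-fold lower in Dox (+) than in Dox (-). Pooled, it was at 30.03, 41.0 and 38.7 RPKM, 1.06-fold lower (1.01 to 1.11). Of its 6 exons with enough reads, 3 were higher and 3 lower in Dox (+), from a ratio of 2.30 on the second exon to 0.795 on the sixth. The intervals of 2 lay above 1 and those of 2 below 1. The 3 higher exons lay 5′ of the 3 lower ones. Klf2, which keeps endothelial cells and T cells quiescent, was at 5.51 RPKM in MEF, 6.51 in Dox (-) and 5.87 in Dox (+), and its ratio of 0.902 between Dox (+) and Dox (-) had an interval of 0.796 to 1.02. Klf15 rested on 337, 53 and 77 reads, and its ratio between Dox (+) and Dox (-) was 1.49 (1.03 to 2.15). Its levels in Dox (-) and Dox (+) were under 1 RPKM.

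**Figure D2:**
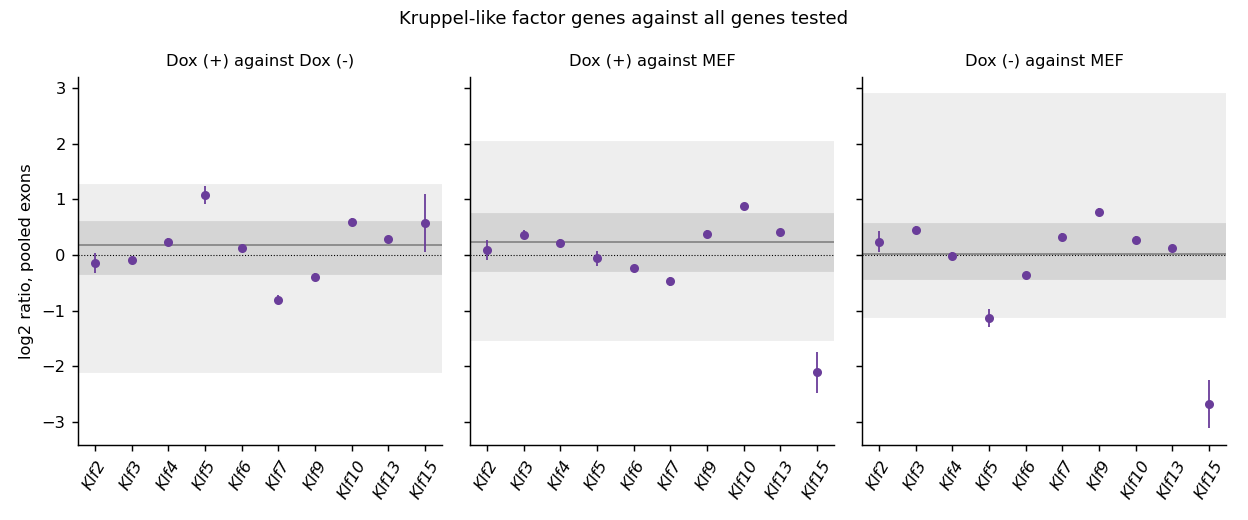
Pooled log2 ratio of each member in the 3 comparisons (points; bars are 95% counting intervals), over the middle 50% (dark band) and middle 90% (light band) of all genes tested, with their median as a line. Klf5 leads Dox (+) against Dox (-) at 1.08. Klf15, which was too low to be among the genes tested, lies below the light band in both comparisons with MEF.

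Both comparisons with MEF share that library, as all 3 comparisons share libraries pairwise, so they are given side by side. Against MEF, 0 of 9 members passed 4-fold in Dox (+), where 9.95% of 12941 genes did, and 0 of 9 in Dox (-), where 9.47% of 13234 genes did. At 2-fold, Klf10 was higher in Dox (+) than in MEF (20.2% of genes were) and 0 members were lower (8.98% of genes were). Klf5 was lower in Dox (-) than in MEF (7.93% of genes were) and 0 members were higher (17.3% of genes were). The median log2 ratio of the 10 members was 0.20 in Dox (+) against MEF, beside 0.27 over all genes, and 0.18 in Dox (-) against MEF, beside 0.01.

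Klf15 was the member furthest from MEF in both knock-in libraries. It was too low for the 10 RPKM threshold, with 3.62 RPKM in MEF, 0.637 in Dox (-) and 0.835 in Dox (+) on its highest exon. Pooled over exons, Dox (-) was 6.36-fold below MEF (4.75 to 8.66) and Dox (+) 4.28-fold below MEF (3.33 to 5.56). Its second exon held 151, 21 and 36 reads, and its last exon 182, 32 and 41 reads. Both exons were lower than in MEF in both knock-in libraries, and 0.639% of the genes tested had a lower ratio in Dox (-) and 3.05% in Dox (+). The genes tested were all above 10 RPKM in 1 or both libraries, so they are not a set of genes as low as Klf15.

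Klf5 was 2.20-fold below MEF in Dox (-) (1.96 to 2.46), on all 3 exons with enough reads, by 2.05-fold to 3.36-fold. In Dox (+) its pooled ratio to MEF was 0.963, and the interval, 0.878 to 1.05, held 1. Klf9 was 1.70-fold above MEF in Dox (-) (1.62 to 1.79) and 1.30-fold above it in Dox (+) (1.23 to 1.36). Klf10 was 1.83-fold above MEF in Dox (+) (1.75 to 1.92) and 1.21-fold above it in Dox (-) (1.15 to 1.27). Klf7 was 1.25-fold above MEF in Dox (-) and 1.39-fold below it in Dox (+). Klf3 was 1.36-fold above MEF in Dox (-) and 1.29-fold above it in Dox (+). Klf6 was 1.29-fold below MEF in Dox (-) and 1.18-fold below it in Dox (+), with its exons divided: the first 3 were higher in Dox (+) than in MEF and the 3163-bp last exon, with 15836 reads in MEF, 11078 in Dox (-) and 11428 in Dox (+), was lower. Klf4 had a pooled ratio to MEF of 0.988 in Dox (-) (0.945 to 1.03) and 1.17 in Dox (+) (1.12 to 1.22). Klf13 had 1.09 and 1.33, and Klf2 had 1.18 (1.04 to 1.34) and 1.07 (0.935 to 1.21).

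**Figure D3:**
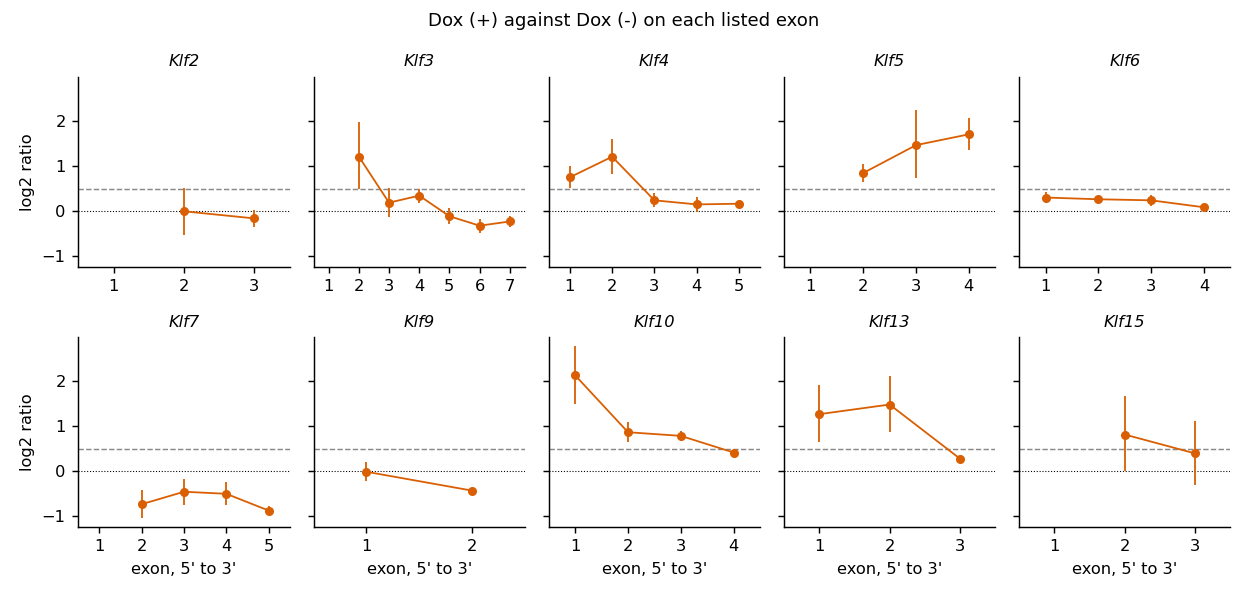
Log2 ratio of Dox (+) to Dox (-) on each listed exon with at least 50 reads over both libraries, numbered 5′ to 3′ (points; bars are 95% counting intervals; the dashed line is the median over first exons of all genes, 0.48). Klf10, Klf4, Klf13 and Klf3 are higher at the 5′ end than at the 3′ end, Klf5 goes the other way, and Klf7 is below 0 on every exon shown.

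A 5′ to 3′ slope such as that of Klf10, Klf4, Klf13 and Klf3 was also present over all genes. Over 8098 genes with at least 50 reads on both end exons, the Dox (+) to Dox (-) log2 ratio had a median of 0.48 on the first listed exon and 0.01 on the last. The ratio was higher on the first exon in 84.9% of them. Against MEF this share was 88.3% of 7520 genes in Dox (+) and 72.7% of 7248 genes in Dox (-). The members that could be read this way between Dox (+) and Dox (-) were Klf4, Klf6, Klf9, Klf10 and Klf13, and all 5 had the higher ratio on the first exon. The difference between first and last exon was 0.22 for Klf6, 0.42 for Klf9, 0.59 for Klf4, 0.99 for Klf13 and 1.71 for Klf10 on the log2 scale, beside a median of 0.45 over all genes. Of all genes, 97.4% had a smaller difference than Klf10 and 85.7% a smaller one than Klf13. The part of this slope in the levels above was not tested. On last exons alone the ratio of Dox (+) to Dox (-) was 3.24 for Klf5, 1.33 for Klf10, 1.21 for Klf13, 1.11 for Klf4 and 1.06 for Klf6, and 0.889 for Klf2, 0.848 for Klf3, 0.740 for Klf9 and 0.545 for Klf7.

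**Figure D4:**
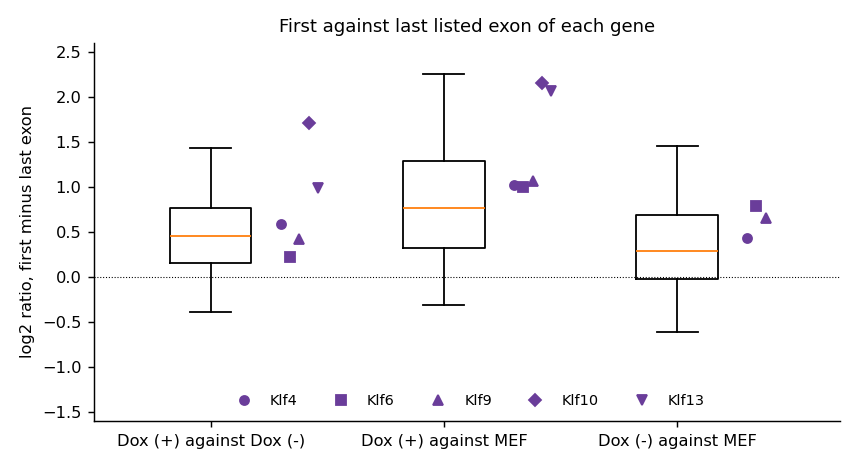
Log2 ratio on the first listed exon minus that on the last, over all genes with enough reads (boxes, middle 50%; whiskers, 5% to 95% of genes; line, median) and for the members that could be read (purple). Medians of all genes are 0.45, 0.77 and 0.28 from left to right, and Klf10 lies above the whisker in Dox (+) against Dox (-).

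Mitf binds E-box DNA, of which CACGTG is the palindromic form, so the promoters of the members were searched for it, from 250 bases before to 50 after the annotated start (RefSeq sequences, GRCm38.p6). Of the 10 members 8 matched an entry by symbol. Klf5 and Klf10, with pooled Dox (+) to Dox (-) ratios of 2.11 and 1.52, had no entry and were not searched. CACGTG was present in 3 of 8, Klf4, Klf6 and Klf15, and in 7.15% of the 32851 promoters of the table. CATGTG or its complement CACATG was present in Klf3 alone of the 8, and in 14.2% of all promoters. CACCC or its complement GGGTG, the core of the family's own binding site, was present in 6 of 8 and in 57.5% of all promoters. The paper marks CATGTG as the E-box motif of MITF. For Klf3, the window cggcgccggcgtCATGTGactgcccagagt lies on chr5:64803531-64803560 (plus strand), after the annotated start. The windows with CACGTG in capitals are printed because this is the palindromic E-box. They lie on chr4:55532640-55532669 (Klf4, minus strand, 182 bases before the start), chr13:5861434-5861463 (Klf6, plus strand, 43 bases before) and, for Klf15 on the plus strand, chr6:90462336-90462365, chr6:90462392-90462421 and chr6:90462561-90462590 (228, 172 and 3 bases before).
Klf4, 182 bases before: cgcccccgccccCACGTGcgcggagtttgt
Klf6, 43 bases before: ctccaagctggtCACGTGgggggagaaggg
Klf15, 228 bases before: ctcccgaggtccCACGTGgtctgcacttcg
Klf15, 172 bases before: tagaacccgtctCACGTGcgcatcggagga
Klf15, 3 bases before: cgcccgcggcgtCACGTGagcggccggaga
A match here is a run of letters and not a measured binding site. The 3 genes with CACGTG had pooled ratios of Dox (+) to Dox (-) of 1.18 (Klf4), 1.10 (Klf6) and 1.49 (Klf15), and the member with CATGTG, Klf3, of 0.945. The median gene tested was at 1.13, and Klf15 rested on 53 reads in Dox (-) and 77 in Dox (+). No listed Klf15 exon lies at the start that was searched. The first listed one begins downstream of it, at chr6:90465304, and held 4, 0 and 0 reads in MEF, Dox (-) and Dox (+). Whether these motifs bear on the ratios was not tested.

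The other 7 genes of the family were mostly low. Only Klf16 passed 10 RPKM, with 22.3 RPKM in MEF, 20.1 in Dox (-) and 24.1 in Dox (+) on its highest exon. Klf8, a CtBP-binding repressor like Klf3, was at 1.66, 0.345 and 0.496 RPKM over pooled exons, from 381, 79 and 111 reads. This was an order of libraries that Klf5, Klf6 and Klf15 also had. Klf12 was at 2.91, 4.84 and 3.27 RPKM pooled, and Klf11 at 5.98, 4.11 and 3.70. Klf1, Klf14 and Klf17 were at most at 0.236 RPKM on any exon. Of the related SP factors, 6 of 9 were listed and 3 tested. Sp1 passed 4-fold against MEF in both knock-in libraries on its highest exon (24.4 RPKM in MEF, 98.9 in Dox (-), 123 in Dox (+)), but its pooled levels were 18.6, 27.4 and 25.1 RPKM. Sp3 was at 86.6, 89.0 and 59.5 RPKM on its highest exon.

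A list of genes for proteins that act with Kruppel-like factors was read in the same way. Of 9 corepressors and coactivators, 2 passed the 2-fold threshold upward between Dox (+) and Dox (-) and 1 downward, beside 10.8% and 11.1% of all genes. Sin3a, the corepressor of Klf9, Klf10 and Klf13, was at 28.7, 28.6 and 42.7 RPKM in MEF, Dox (-) and Dox (+) over pooled exons. On its highest exon it differed 4.68-fold between Dox (+) and Dox (-), and pooled 1.49-fold. Sin3b was 2.07-fold higher in Dox (+) over pooled exons, and the acetyltransferase Kat2b 3.39-fold lower. Hdac1 was more than 2-fold below MEF in both, at 56.6, 23.2 and 20.4 RPKM pooled, and Ep300 more than 2-fold above MEF in both. The CtBP genes that serve Klf3 did not pass 2-fold, with Ctbp1 at 118, 123 and 166 RPKM pooled. Of the 3 ubiquitin ligases that act on members, Smurf1 was at 31.5, 53.2 and 106 RPKM pooled and passed 2-fold between Dox (+) and Dox (-) on its highest exon, while Wwp1, a ligase of Klf2 and Klf5, was at 12.7, 39.0 and 40.4 RPKM. Of the 7 genes of the ERK5 and MEF2 pathway, which induces Klf2 and Klf4 in endothelial cells, 0 passed 2-fold between Dox (+) and Dox (-). Against MEF 2 of them were higher by this threshold in each knock-in library, beside 20.2% of all genes in Dox (+) and 17.3% in Dox (-): Map3k2 in both, Mef2d in Dox (+) and Mef2a in Dox (-). Over pooled exons the ratio to MEF was 1.996 for Map3k2 in Dox (+) and 1.92 for Mef2a in Dox (-).

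Genes known from other tissues as targets of the family were described by the same counts. The list was chosen with earlier results of these data known, so its counts are no independent check of the family's activity. It was also not divided into activated and repressed genes, so the counts give no direction of that activity. Of 12 listed, 11 were found and 9 tested. In Dox (+) against Dox (-) 3 passed 2-fold upward and 1 downward, where 10.8% of all genes were higher and 11.1% lower. The median log2 ratio of the 9 was 0.59, beside 0.23 over all genes tested. Thbd, the thrombomodulin gene that Klf2 and Klf4 activate in endothelium, was at 33.6 RPKM in MEF, 89.4 in Dox (-) and 232 in Dox (+). Lgals3 was at 291, 302 and 1480 RPKM over pooled exons and Ccnd1 at 117, 168 and 386. S1pr1, a Klf2 target of T cells, was at 6.54, 23.5 and 11.6 RPKM pooled. Against MEF, 6 of 9 passed 4-fold in Dox (+) and 3 in Dox (-), all higher, beside 9.95% and 9.47% of all genes in either direction. They were Cdkn1a, the cell cycle inhibitor that Klf4 and Klf6 activate, Eng and Acvrl1 in both, and Thbd, Lgals3 and Ccnd1 in Dox (+), and Cdkn1a was at 127, 574 and 813 RPKM pooled. Over pooled exons Ccnd1 (3.30-fold in Dox (+)) and Acvrl1 (3.42-fold in Dox (+) and 3.43-fold in Dox (-)) were below 4-fold.

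The glucocorticoid receptor gene Nr3c1 was at 15.3, 36.1 and 23.4 RPKM pooled in MEF, Dox (-) and Dox (+). Klf9 had this order of libraries, as did Klf2, Klf3 and Klf12, while Klf15, the other known receptor target, was highest in MEF. Whether the receptor bears on these levels was not tested. Of 5 glucocorticoid genes tested, 1 passed 2-fold upward between Dox (+) and Dox (-), beside 10.8% of all genes. It was Sgk1, at 92.7, 52.9 and 148 RPKM pooled. Fkbp5 was at 26.9, 28.5 and 34.1 RPKM and Tsc22d3 at 22.02, 19.0 and 21.6. Against MEF, Nr3c1 passed 2-fold in both knock-in libraries and Per1 in Dox (+) on the highest exon, while over pooled exons Nr3c1 was at 2.36-fold in Dox (-) and 1.53-fold in Dox (+), and Per1 at 1.89-fold in Dox (+). Of 7 immediate early genes tested, Egr1 passed 2-fold upward between Dox (+) and Dox (-), at 30.9, 45.3 and 97.9 RPKM pooled, and Fos downward, at 8.64, 27.9 and 9.13 RPKM. Against MEF, 4 passed 2-fold in Dox (+) (Jun, Junb, Egr1 and Ier2) and 3 in Dox (-) (Fos, Jun and Junb), all higher, beside 20.2% and 17.3% of all genes.

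The genes with the profile most like a member's were found by the root mean square difference of centred log2(RPKM + 1) values over the 3 libraries, among 11478 genes above 10 RPKM (11479 for Klf15). With 3 libraries many genes come close, so the number within a difference of 0.1 is given. Klf5 had 10 such genes, the fewest of the members, with Phb2, Slc29a1 and Elp4 nearest. Phb2 was at 3115 RPKM in MEF, 1063 in Dox (-) and 2664 in Dox (+) on its highest exon. Klf15 had 25, with Adgrl3, Lrrcc1 and Fgfr2 nearest, and Klf7 had 173, with Eci3, Akap11 and Osbpl10. Klf9 had 229 (Evi5, Gfpt1 and Vma21), Klf3 315 (Fbxo9, Mtx3 and Tm9sf3) and Klf10 345 (Hyal2, Adgre5 and Ranbp9). Klf2 had 479 (Ppp1r12a, Sptbn1 and Arhgap44), Klf4 659 (Paf1, Cpt1a and Sec61a2), Klf13 702 (Esf1, Zfp236 and Zkscan14) and Klf6 731 (Lamtor4, Cnot9 and Rnf2).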

How the data were processed

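RNA was poly(A) selected, and per the labels reads were converted with bcl2fastq 2.17.1.14 and aligned to mm10 with TopHat2 2.0.10. Reads were counted per Ensembl exon with bedtools, and the authors deposited RPKM per exon. The basis on which exons were listed is not given in the sources used here. Columns were assigned by name, and 1 column that matched no label was not used. Exons were assigned to genes with GENCODE M21. Reads were recovered with a whole-number divisor between 20 and 80 (97.2 to 97.4% of values below 200 reads were whole within 0.05). Gene levels were the highest exon, as in the study, or reads pooled over non-overlapping exons. Genes were called above 10 RPKM in at least 1 library and above 4-fold or 2-fold, and log2 ratios of the highest exon used a pseudocount of 1 RPKM. No p-values were computed. The text names all members, the called or 2 highest genes of each list, and the 3 nearest profiles; some called genes are given as counts. Members and lists were chosen with earlier results of these data known. The scripts were tested on simulated data (Python 3.11.15, pandas 2.3.3, SciPy 1.17.1).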

Additional observations from a re-analysis of the deposited data

How the results depend on the processing

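With 1 library per condition no result has a replicate error, and depth limits Klf15 and the 5′ exons of Klf2, Klf3, Klf5, Klf7, Klf10 and Klf13. The first exon of Klf7 held 5, 5 and 1 reads in MEF, Dox (-) and Dox (+), and that of Klf3 about 10, 10 and 15. No paired analysis was possible because each condition had 1 library. On highest exons no member above 10 RPKM passed 4-fold in any comparison. At a fold threshold of 2, 1 member passed in each comparison (Klf5, Klf10 and Klf5), and 21.9%, 29.2% and 25.2% of all genes did, in Dox (+) against Dox (-), Dox (+) against MEF and Dox (-) against MEF. At a fold threshold of 8 the share of all genes was 3.81%, 5.02% and 6.01%. At an expression threshold of 1 RPKM Klf15 passed in both comparisons with MEF (1 member in each), and the share of genes was 11.0%, 15.2% and 14.9%. On the first listed exon alone, an alternative added after seeing the data, Klf10 passed in Dox (+) against Dox (-) and against MEF (1 member in each). An expression threshold of 30 RPKM, the same exon in every library, pooled exons, a pseudocount, rescaled libraries and the last listed exon (also added later) gave 0 members in every comparison. Rescaling by the median ratio, a shift of 0.30 on the log2 scale in Dox (+) against Dox (-), turned the sign of 6 of 30 member ratios, and pooling turned 3, the first exon 4 and the last exon 5. The planned comparisons with the primary melanocytes were not run.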
